A study of Mus musculus with 18 samples.

Results

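The uninjured knees of the mice were compared between the 2 time points of the study: 3 contralateral libraries taken 7 days after rupture of the anterior cruciate ligament (ACL) against 3 taken 1 day after it, 6 of the 18 libraries of the series. The members were chosen by their treatment label alone, day_7_left or day_1_left. All animals were male wild-type C57Bl/6J mice, 12 weeks old, and the ACL of the right knee was torn by a single 12 N load under isoflurane, with buprenorphine given at the start, so that the left knees studied here belonged to animals that had been anaesthetised, treated and injured in the other limb. The same mice gave 3 injured libraries at each day, and 6 further libraries came from naive mice labelled day_7_naive. The study's scheme kept left and right knees in separate pools, so that some naive libraries may share mice, and the naive ranges and tests below treat them as independent. Each library held the cartilage of several mice, taken from the femoral condyles down to the tidemark, the border of calcified cartilage. By the study's scheme fewer mice entered a library at day 1 than at day 7, whereas the series description gives 1 pool size throughout, so pool size and day cannot be told apart. Mice of day 1 and day 7 were different animals, and nothing in the labels pairs a day 7 library with a day 1 library. Total RNA depleted of ribosomal RNA was sequenced, and the deposited estimated counts summed to 25016972, 25344942 and 41794005 in the 3 day 1 libraries and to 19192253, 21200210 and 29794566 in the 3 day 7 libraries. Levels are given below as CPM, each gene's counts divided by its library's total and brought to one scale by the trimmed mean of M-values over all 18 libraries.

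Articular cartilage is made by chondrocytes, which secrete type II collagen and aggrecan. Below the tidemark its matrix is calcified and its cells resemble the hypertrophic chondrocytes of the growth plate, which make type X collagen and the collagenase Mmp13. Beneath lie the subchondral bone plate, built of type I collagen by osteoblasts and resorbed by osteoclasts, and the marrow, where blood cells form. The labels name the cells chondrocytes, and all 16 chondrocyte markers were detected in each of the 6 libraries, with a summed level of 5058 to 15698 CPM. Osteoblast and osteocyte markers summed to 7672 to 53140 CPM, of which Col1a1 alone gave 7058 to 52440 CPM, and all 14 erythroid genes were detected with a sum of 30993 to 66877 CPM, led by the haemoglobin gene Hbb-bs. Transcripts typical of bone and marrow were thus present beside those of cartilage in every library. Skin markers were close to absent, with a sum of 1.62 to 2.31 CPM over 6 keratinocyte genes in the 6 libraries. In pooled tissue, fewer cells of a type and less RNA per cell cannot be told apart.

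One of the 6 libraries, numbered 13 in the labels and taken at day 7, stood apart from the rest before any gene was compared. Its 10 most abundant genes took 42.5% of its counts, against 18.2 to 22.5% in the other 5. Transcripts of the mitochondrial genome made up 0.914% of its counts, against 5.53 to 6.65%. The mean effective length of its transcripts, weighted by counts, was 2482 bases, against 3342 to 3665 bases, and its protein-coding share was 63.6%, against 79.4 to 83.1%. A pair of processed pseudogenes with equal values, Gm12895 and Gm12896, stood at 118227 CPM each and an rRNA-like clone, CT010467.1, at 99842 CPM, whereas the other 5 libraries held 11281 to 21617 CPM of each pseudogene and 10735 to 16199 CPM of the clone. The signal recognition particle RNA gene Rn7s2 was at 67195 CPM in library 13 and at 18667 to 33569 CPM elsewhere. In a fit with sample weights it received the weight 0.158, the lowest of all 18 libraries, against 0.566 to 2.24 for the other 5. The main comparisons are therefore given with this library and without it, and a value printed alone comes from the fit of all 18 libraries.

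**Figure D1:**
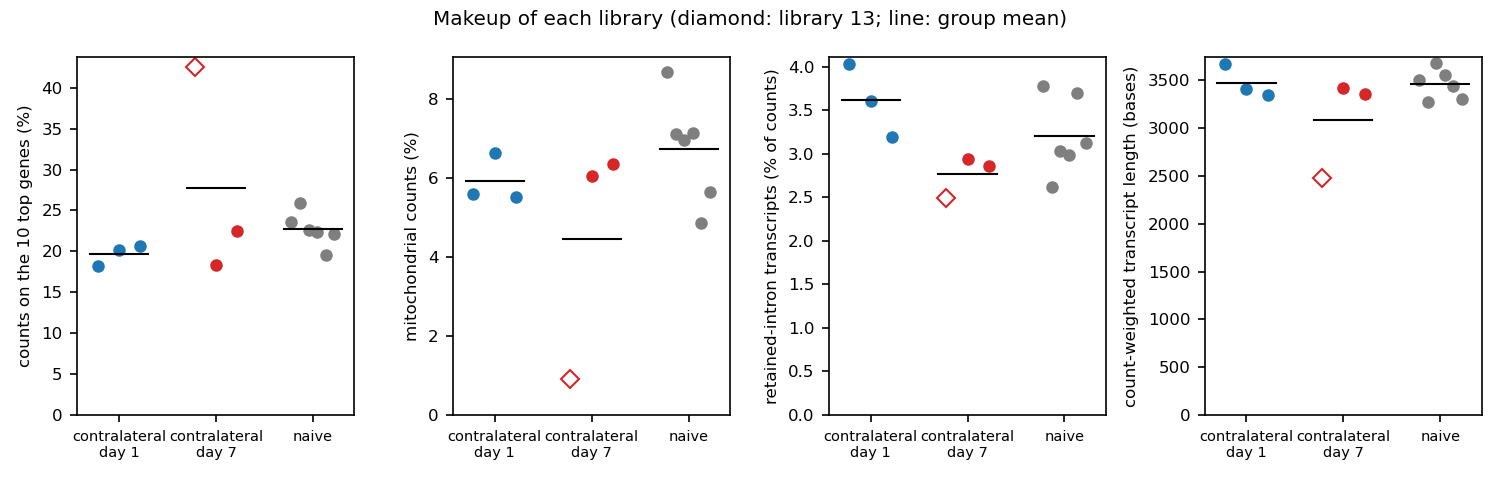
Makeup of the contralateral and naive libraries, 1 point per library, with the group mean as a line: share of counts on the 10 top genes, share on mitochondrial genes, share on retained-intron transcripts (all in percent) and count-weighted effective transcript length in bases. Library 13 (open diamond) lies outside the others in the panels of top genes, mitochondrial counts and length, and the 3 day 7 libraries lie below the 3 day 1 libraries in that of retained introns.

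Genes that rose in the injured knees were used to set library 13 against its label. Dkk3, a secreted glycoprotein of the Dickkopf family, was at 22.6 CPM in library 13 and at no less than 213 CPM in the 3 injured libraries of day 7. Fmod, a small proteoglycan that binds collagen fibrils, was at 145 CPM against at least 971 CPM there. Library 13 thus lay below every injured library of day 7 for both genes. For type I collagen it did not, as its Col1a1, at 52440 CPM, and Col1a2, at 27123 CPM, fell within the ranges of 46982 to 54701 CPM and 26247 to 29423 CPM of those libraries, and its Col2a1, at 10448 CPM, was above both the contralateral and the injured libraries.

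A second library had a profile of its own. Library 5, from day 1, held the highest value of the 6 for 12 of the 21 tested inflammatory genes. Timp1, an inhibitor of matrix metalloproteinases, was at 93.8 CPM in library 5 and at 5.26 to 11.4 CPM in the other 5. Tnfaip6, which modifies hyaluronan in inflamed joints, was at 34.1 CPM against 2.17 to 2.57 CPM. The chemokine genes Ccl7 (18.4 CPM against 0.43 to 2.03 CPM) and Cxcl5 (20.7 CPM against 1.58 to 2.34 CPM) behaved alike, as did lubricin, Prg4, at 1649 CPM against 240.5 to 624 CPM. Timp1 was as high in 1 naive library, number 11 (94.1 CPM), and in 1 injured library of day 1, number 3 (87.7 CPM), while the other 2 injured libraries of day 1 were at 8.70 and 15.3 CPM. In the injured knees of day 7 it was at 59.1 to 83.3 CPM. The profile therefore did not follow the treatment labels at day 1.

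Across all genes the 2 days differed no more than the day 1 libraries did among themselves, once library 13 was set aside. The root mean square difference in log2 CPM over the genes tested was 0.347 to 0.403 for the 6 pairs formed by day 7 libraries 14 and 15 with day 1 libraries, inside the 0.359 to 0.427 of the 3 pairs within day 1 or below it. Libraries 14 and 15, the other pair within day 7, were at 0.29, below all 6 distances across days. Library 13 lay 0.646 and 0.663 from its own group and 0.688 to 0.723 from day 1. The naive libraries differed among themselves by 0.342 to 0.479, a range that covers all 6 distances between the days without library 13.

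**Figure D2:**
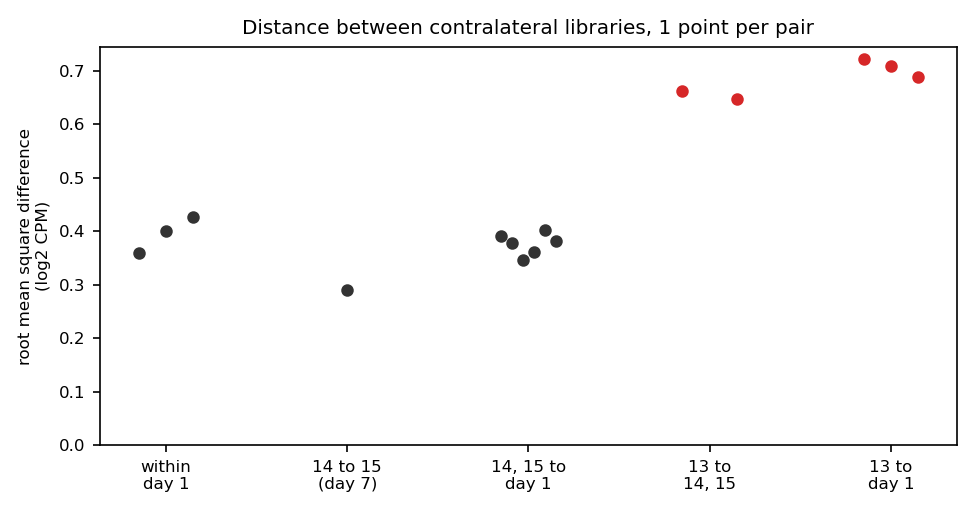
Distance between each pair of the 6 contralateral libraries, as the root mean square difference in log2 CPM, 1 point per pair. Pairs across days without library 13 fall between 0.347 and 0.403, at the level of pairs within day 1, and only pairs with library 13 (red) exceed 0.6.

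The comparison over genes was made with edgeR's quasi-likelihood test on all 18 libraries, and a gene was called at a Benjamini-Hochberg adjusted p of at most 0.05 and a change of at least 1.5-fold. Of 21262 genes tested, 3 rose and 1 fell from day 1 to day 7, 0.0188% of those tested. Without library 13, 0 of 21808 genes were called in either direction, 0% of those tested, with a lowest adjusted p of 0.0614. At an unadjusted p under 0.05 the fit with library 13 held 2638 genes and that without it 1374, of which 7.29% and 2.88% of the genes tested were higher at day 7 and 5.12% and 3.43% lower. DESeq2's Wald test, run as an alternative, called 69 genes higher and 12 lower with library 13, and 33 higher and 7 lower without it. The 2 DESeq2 lists shared 25 genes, 30.9% of the first and 62.5% of the second. The study's own tool, limma-voom, called 0 genes with library 13 (2194 at an unadjusted p under 0.05), and 2 higher without it. The number of changed genes thus depended on the tool, and edgeR's 4 calls were also lost when any other of the 6 libraries was left out (0 higher and 0 lower each time, lowest adjusted p 0.0649 to 0.354). In the injured knees edgeR called 2877 genes, 13.5% of those tested, between the same days, 8.01% higher and 5.52% lower.

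Ckb encodes the brain-type creatine kinase, which regenerates ATP from phosphocreatine and is abundant in osteoclasts as well as in brain. It lies at chr12:111669361-111672338 (GRCm38). Its level was 49.9, 43.0 and 46.0 CPM in the 3 day 1 libraries and 136, 95.2 and 91.8 CPM in day 7 libraries 13, 14 and 15. The groups did not overlap, and all 3 day 7 values also exceeded the highest of 6 naive libraries, at 76.5 CPM (lowest 48.0, median 59.0). The log2 fold change was 1.21 ± 0.18 (SE, n = 3 against 3, adjusted p = 0.0457). Without library 13 it was 1.01 ± 0.17 and missed the threshold (adjusted p = 0.121).

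Bambi encodes a pseudoreceptor that lacks a kinase domain and dampens signalling by TGF-beta and BMP. Its level was 8.16, 7.91 and 8.93 CPM at day 1 and 14.96, 14.4 and 16.1 CPM at day 7, against 9.94 to 12.8 CPM in naive knees. The values were tight within each group, library 13 included, and the log2 fold change was 0.86 ± 0.14 (adjusted p = 0.0457). It was 0.87 ± 0.15 without library 13 (adjusted p = 0.121), so that the size did not move although the call was lost.

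The other gene that rose, C77080, lies at chr4:129219578-129261404. It stood at 9.34, 8.54 and 9.53 CPM at day 1 and at 16.4, 14.8 and 17.1 CPM at day 7, again without overlap. The log2 fold change was 0.81 ± 0.13 (adjusted p = 0.0457), and 0.79 ± 0.14 without library 13 (adjusted p = 0.121). The gene that fell was a processed pseudogene of the X chromosome, Gm14567, named although predicted genes were otherwise only counted. It had 32, 27 and 45 counts at day 1 and 0, 2 and 4 counts at day 7, and a log2 fold change of -3.49 ± 0.56 (adjusted p = 0.0457), and of -3.16 ± 0.56 without library 13 (adjusted p = 0.121). Reads of such copies can be shared with their parent genes, so its level is uncertain.

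**Figure D3:**
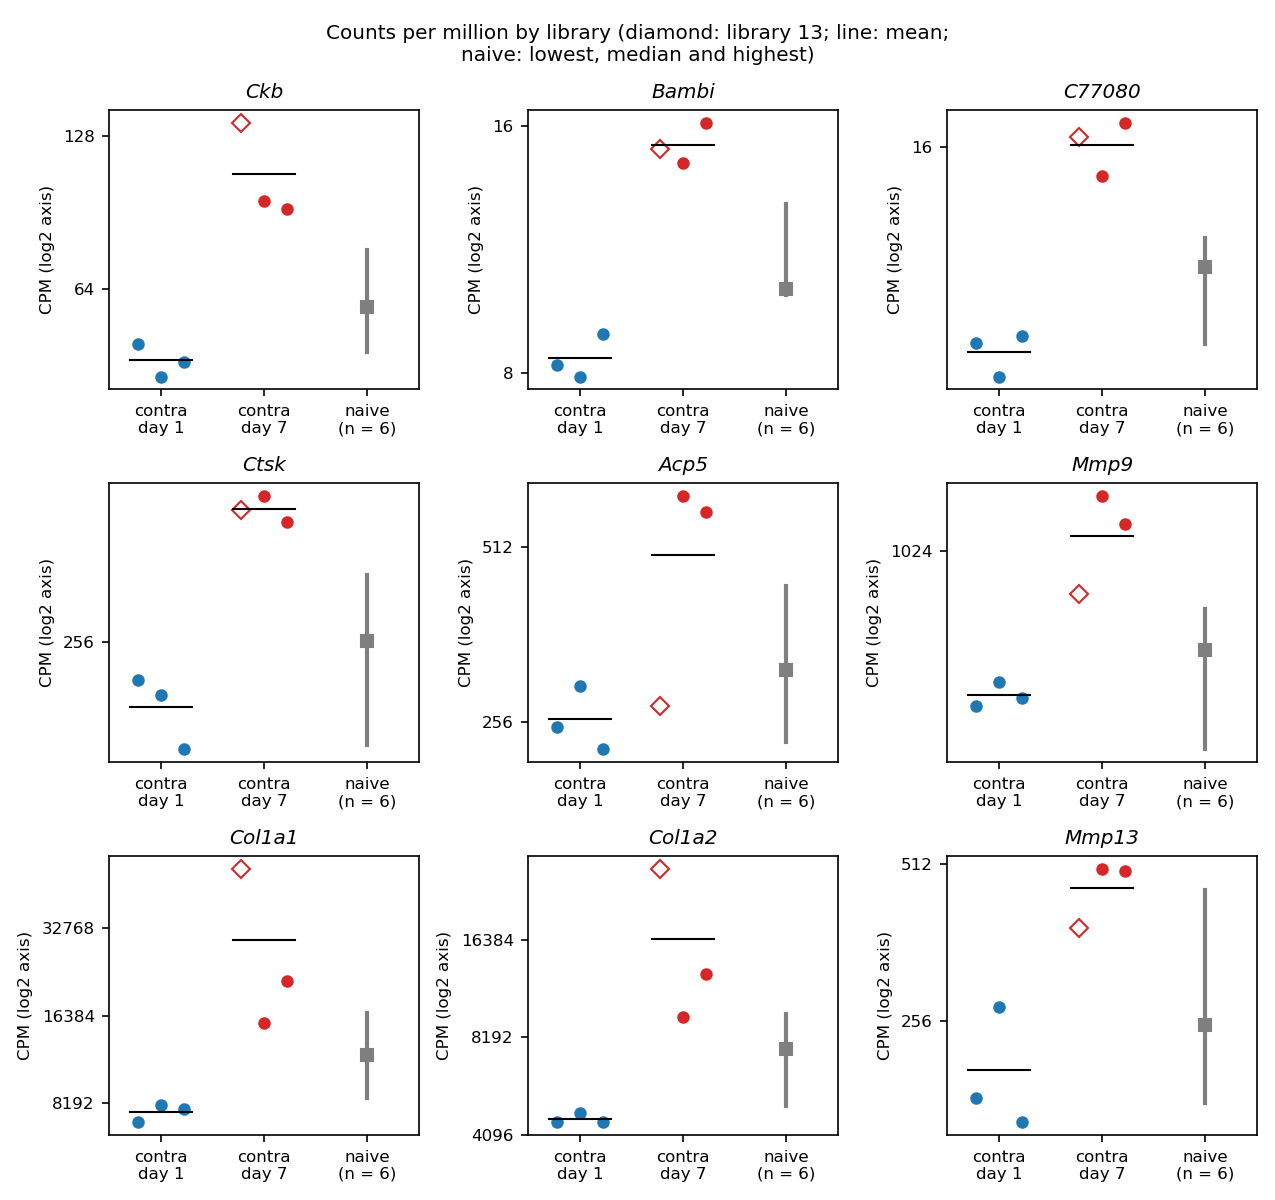
Level in CPM (log2 axis) in each contralateral library (points, with the mean as a line) and in 6 naive libraries (lowest, median and highest) for the 3 genes that rose, 3 osteoclast genes, both type I collagen genes and Mmp13. Day 7 lies above day 1 without overlap except for Acp5, where library 13 (open diamond) falls among the day 1 values, and the naive medians lie between the means of the 2 days.

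Osteoclast genes formed the list with the highest median without library 13, and the second highest, after the cartilage collagens, with it. All 10 listed genes were tested, and edgeR called 0 in either fit. DESeq2 called 5 higher with library 13 and 4 without it, against 0.325% and 0.151% of all genes tested that it called higher. Ctsk and Mmp9 were called in both DESeq2 fits. Dcstamp, Ocstamp and Oscar were called only with library 13, and Acp5 and Atp6v0d2 only without it. The median log2 fold change of the 10 genes was 0.73, and 0.92 without library 13, against -0.01 and -0.02 over all genes tested. In 9 of 10 the fold change was above 0, and in 10 of 10 without library 13. For 5 of 10 the 3 day 7 values all exceeded the 3 day 1 values, which held for 7.37% of all genes tested, and at an unadjusted p under 0.05, 7 of 10 were higher (8 of 10 without library 13). Earlier results of these data were known when the list was made, and its genes share cells and regulators, so they are not independent.

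Ctsk encodes cathepsin K, the proteinase with which osteoclasts degrade bone collagen. It lies at chr3:95499256-95509362. Its level was 224, 212 and 175 CPM at day 1 and 410, 431 and 392 CPM at day 7, so the groups did not overlap, and naive knees ranged from 177 to 325 CPM. The log2 fold change was 1.02 ± 0.18 with library 13 (edgeR adjusted p = 0.094) and 1.01 ± 0.20 without it (adjusted p = 0.186). It was called by DESeq2 in both fits (adjusted p = 0.000167 and 0.00213).

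Acp5 encodes tartrate-resistant acid phosphatase, the classical histochemical marker of osteoclasts. It stood at 251, 296 and 230 CPM at day 1 and at 626 and 586 CPM in day 7 libraries 14 and 15, but at 273 CPM in library 13. Its log2 fold change was 0.94 ± 0.28 and 1.22 ± 0.24 when library 13 was left out (adjusted p = 0.298 and 0.186). Mmp9, the gelatinase secreted by osteoclasts and neutrophils, was at 675, 719 and 689 CPM at day 1 and at 911, 1187 and 1101 CPM at day 7, without overlap. It missed edgeR's threshold (log2 fold change 0.62 ± 0.16, adjusted p = 0.265, and 0.72 ± 0.17 without library 13, adjusted p = 0.295) and passed that of DESeq2 with library 13 (adjusted p = 0.0278) and without it (adjusted p = 0.0167).

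Genes for the fusion and activation of osteoclast precursors were low in level and followed the same order. Ocstamp, needed for fusion, stood at 4.58, 4.64 and 4.23 CPM at day 1 and at 8.88, 7.67 and 7.37 CPM at day 7. Dcstamp, its partner in fusion, stood at 4.73, 2.46 and 3.18 CPM and at 11.9, 7.76 and 5.95 CPM. Oscar, a collagen-binding receptor that costimulates osteoclasts, stood at 2.54, 2.17 and 2.03 CPM and at 6.94, 5.66 and 4.83 CPM. None of the 3 overlapped between the days, and none passed edgeR's threshold (adjusted p = 0.232, 0.246 and 0.211). Nfatc1, the transcription factor at the head of osteoclast differentiation, and Itgb3, the integrin subunit through which osteoclasts attach, did overlap, with log2 fold changes of -0.02 and 0.22.

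Resorption needs acid, which the vacuolar proton pump supplies. Atp6v0d2, a pump subunit enriched in osteoclasts, was at 23.8, 24.7 and 17.5 CPM at day 1 and at 43.5 and 42.2 CPM in libraries 14 and 15, with 16.4 CPM in library 13. Slc9b2, a sodium/proton exchanger of osteoclasts, stood at 13.03, 12.3 and 10.9 CPM at day 1 and at 19.3, 23.5 and 21.1 CPM, above the naive maximum of 16.4 CPM. It had an edgeR adjusted p of 0.114 and a DESeq2 adjusted p of 0.000484. Over all 22 tested pump subunits and accessory proteins, a list made after values had been seen, the median log2 fold change was 0.15 (0.17 without library 13) and 10 (6 without it) were higher at an unadjusted p under 0.05, against 7.29% (2.88%) of all genes tested. edgeR called 0 of them in either fit, whereas DESeq2 called Atp6v1b2 with library 13 (log2 fold change 0.73, adjusted p = 0.0224) and Atp6v0d2 without it (0.98, adjusted p = 0.00647). Among all genes tested DESeq2 called 0.325% higher with library 13 and 0.151% without it. Atp6v1a, the catalytic subunit, stood at 115, 109 and 120 CPM and at 150, 163 and 156 CPM, a log2 fold change of 0.44, and that of Atp6v0d2 was 0.96 ± 0.20 without library 13.

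Bone-forming genes had the next highest median without library 13. The 12 genes of osteoblasts and osteocytes had a median log2 fold change of 0.69 (0.70 without library 13), and 8 were higher at an unadjusted p under 0.05 (9 without it), against 7.29% and 2.88% of all genes tested. edgeR called 0 of them in either fit, and DESeq2 called 2 in each (0.325% and 0.151% of all genes), Col1a1 and Sp7 with library 13 and Col1a1 and Ibsp without it. Col1a1, the alpha 1 chain of type I collagen, was at 7058, 8092 and 7873 CPM at day 1. At day 7 it was at 52440 CPM in library 13 and at 15476 and 21550 CPM in libraries 14 and 15. The log2 fold change was 1.96 ± 0.40, and 1.27 ± 0.32 without library 13 (adjusted p = 0.168 and 0.388), and DESeq2 called the gene in both fits (adjusted p = 0.000167 and 0.0125). Col1a2, its partner chain, showed the same order, with 4470, 4779 and 4469 CPM at day 1 and 27123, 9444 and 12863 CPM at day 7.

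The osteocalcin gene Bglap, made by mature osteoblasts, stood at 73.7, 84.7 and 65.4 CPM at day 1 and at 109, 157 and 185 CPM at day 7. Its neighbour copy Bglap2, with which reads may be shared, stood at 47.0, 52.7 and 43.8 CPM and at 66.0, 107 and 134 CPM. Sp7, the transcription factor osterix, stood at 19.9, 20.3 and 21.3 CPM and at 36.6, 28.6 and 31.6 CPM. None of these overlapped between the days, which held for 6 of the 12 genes of the list and 7.37% of all genes tested, and their edgeR adjusted p-values were 0.325, 0.322 and 0.258. Ifitm5, an osteoblast membrane protein, was low, at 2.65, 2.80 and 2.99 CPM against 4.21, 5.57 and 5.58 CPM, also without overlap. The osteocyte genes divided. Phex was higher at day 7 without overlap (log2 fold change 0.73), Dmp1 overlapped through library 13 (0.54), and Mepe was at 39.3, 25.0 and 32.4 CPM at day 1 and at 8.34, 21.2 and 32.8 CPM at day 7 (log2 fold change -0.61 ± 0.30, adjusted p = 0.403). Sost, which encodes the Wnt inhibitor sclerostin, was at 56.7 CPM in library 13, while libraries 14 and 15, at 17.1 and 27.1 CPM, overlapped day 1, with log2 fold changes of 0.80 with that library and 0.21 without it.

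Hypertrophic chondrocyte genes followed, in a list that shares the bone genes Ibsp, Alpl and Sp7 with the previous one. Their 10 listed members had a median log2 fold change of 0.51 (0.58 without library 13), and 6 (7) were higher at an unadjusted p under 0.05, against 7.29% (2.88%) of all genes tested. edgeR called 0 of them in either fit, and DESeq2 called 2 in each (0.325% and 0.151% of all genes), Mmp13 and Sp7 with library 13 and Mmp13 and Ibsp without it. Mmp13, the collagenase of hypertrophic cartilage, stood at 182, 272 and 163 CPM at day 1 and at 387, 502 and 497 CPM at day 7. Its log2 fold change was 1.17 ± 0.26 (adjusted p = 0.212), and 1.28 ± 0.28 without library 13 (adjusted p = 0.248). It was called by DESeq2 with library 13 (adjusted p = 0.00406) and without it (adjusted p = 0.00608). Col10a1, the type X collagen gene, was at 174, 345 and 184 CPM at day 1, where library 4 was high, and at 478, 503 and 433 CPM at day 7. Pth1r, the receptor of parathyroid hormone and its related peptide, stood at 40.1, 46.2 and 44.7 CPM and at 61.3, 60.4 and 68.2 CPM. Ihh, the hedgehog ligand of prehypertrophic cells, stood at 1.90, 3.72 and 1.66 CPM and at 5.30, 4.19 and 3.75 CPM. Runx2, the transcription factor of hypertrophy and bone formation, overlapped, at 55.7, 61.6 and 58.6 CPM against 43.2, 61.5 and 65.3 CPM.

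By list medians naive knees lay between the days for these 3 groups, though not only for them. Against naive libraries the median log2 fold change of the osteoclast list was 0.54 at day 7 and -0.25 at day 1, that of the osteoblast and osteocyte list 0.40 and -0.26, and that of the hypertrophic list 0.25 and -0.23. The 2 comparisons share their naive samples and are given side by side only. In neither was a gene called across the whole table. At day 7, 0 of 21262 passed (3220 at an unadjusted p under 0.05, and 1201 without library 13). At day 1, 0 passed (399 at that p, and 638 without library 13). Medians against naive were also 0.48 at day 7 and -0.42 at day 1 for cartilage collagens, and 0.27 and -0.45 for connective tissue collagens. For interferon-stimulated genes they were 0.34 and -0.22. Without library 13 the day 7 medians of these lists were -0.10, 0.02 and 0.05, against 0.64, 0.46 and 0.35 for the 3 groups. The summed osteoclast level was 1640, 1625 and 1617 CPM at day 1, 2185, 2768 and 2620 CPM at day 7, and 1486 to 2119 CPM in the naive knees, with Mmp9 the most abundant member. The day 1 sums thus lay within the naive range and the day 7 sums above it. The labels do not give the depth of each cut, and whether the amount of bone carried with the cap differed between days was not tested.

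Chondrocyte markers and cartilage collagens had lower medians once library 13 was set aside. The median of 23 cartilage matrix proteins went from 0.15 to 0.10 (0.35 without library 14). That of 13 small leucine-rich proteoglycans went the other way, from 0.08 to 0.26 (-0.10 without library 15). The 16 chondrocyte markers had a median log2 fold change of 0.60, with 12 of 16 above 0. At an unadjusted p under 0.05, 9 of them were higher and 1 lower. Without library 13 the median was 0.28, with 15 of 16 above 0, and 2 were higher and 0 lower at that p. Over all genes tested 7.29% and 2.88% were higher at that p, and 5.12% and 3.43% lower. Col2a1, the type II collagen gene, was at 2577, 2406 and 2507 CPM at day 1, at 2739 and 3128 CPM in libraries 14 and 15, and at 10448 CPM in library 13. Its log2 fold change was 1.12 ± 0.38, and 0.23 ± 0.24 without that library (adjusted p = 0.322 and 0.906). Acan, which encodes aggrecan, stood at 328, 247 and 307 CPM and at 448, 278 and 354 CPM. Sox9, the chondrocyte transcription factor, stood at 18.7, 13.8 and 19.6 CPM and at 14.1, 15.9 and 19.5 CPM. For both, the days overlapped. The fibrillar collagen genes Col11a1 and Col11a2 did not overlap between the days. Col11a1 was at 369, 380 and 329 CPM at day 1 and at 917, 531 and 668 CPM at day 7, and its log2 fold change was 0.73 ± 0.24 without library 13 (adjusted p = 0.59). Col11a2 was at 363, 375 and 351 CPM at day 1 and at 1401, 546 and 671 CPM at day 7, and its log2 fold change was 0.74 ± 0.24 without library 13 (adjusted p = 0.579). DESeq2 called both with library 13, against 0.325% of all genes called higher, and neither without it. Over the 15 cartilage collagens the median went from 0.87 to 0.31 when library 13 was left out.

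**Figure D4:**
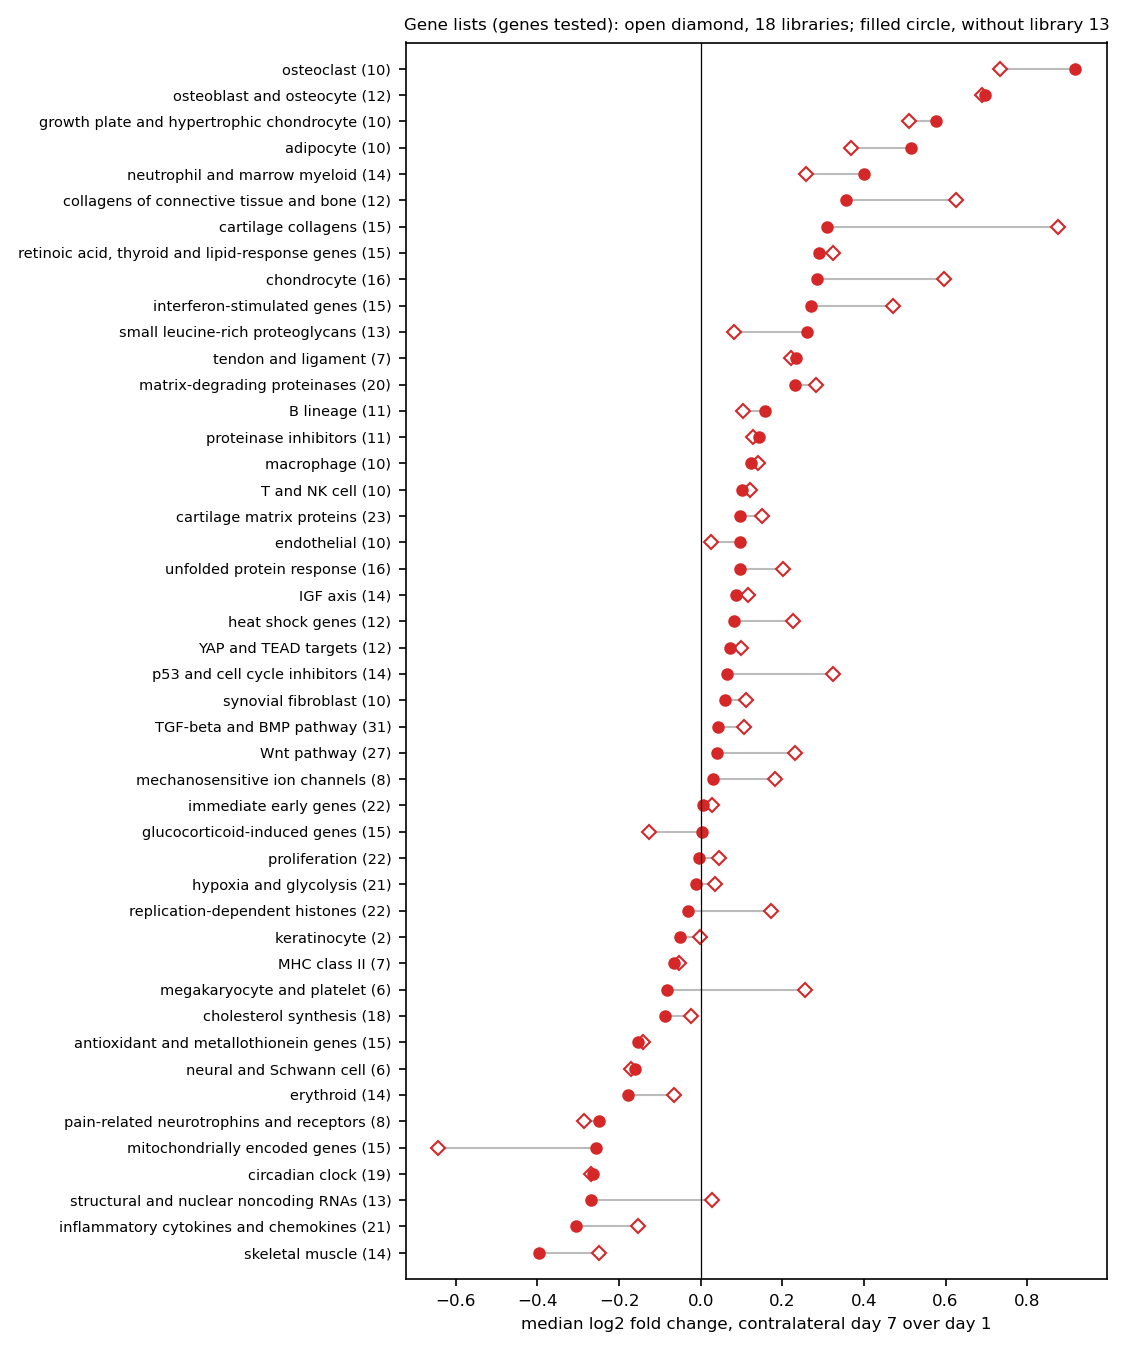
Median log2 fold change from day 1 to day 7 in contralateral knees of each gene list (number of genes tested in brackets), with all 18 libraries in the fit (open diamonds) and without library 13 (circles). Osteoclast, osteoblast and hypertrophic lists lie highest without library 13 (0.92, 0.70 and 0.58), and the median of the cartilage collagens goes from 0.87 to 0.31 and that of the mitochondrial genes from -0.64 to -0.26 when it is left out.

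Marrow and other cell types were measured beside these groups, since their RNA came with the caps. The 14 erythroid genes had a median log2 fold change of -0.07 (-0.18 without library 13, 0.03 without library 5 and 0.01 without library 14), and the sum was 39254, 31799 and 41944 CPM at day 1 and 66877, 30993 and 33326 CPM at day 7. Neutrophil and marrow myeloid genes had a median of 0.26 (0.40 without library 13 and 0.47 without library 4), with Ltf, the lactoferrin gene of neutrophil granules, at 2241, 2286 and 2090 CPM and at 3573, 3165 and 2899 CPM (adjusted over all genes, 0 of 14 were called). In this list 12 of 14 were above 0 (14 without library 13), and 5 were higher without overlap, against 7.37% of all genes. At an unadjusted p under 0.05, 5 were higher (1 without library 13), against 7.29% (2.88%) of all genes. Macrophage genes had a median of 0.14 (0.23 without library 4 and 0.22 without library 5). Csf1r, the receptor of the growth factor on which macrophages and osteoclasts depend, stood at 166, 173 and 225 CPM against 270, 235 and 252 CPM. It was the only 1 of the 10 macrophage genes without overlap, near the 7.37% of all genes. Skeletal muscle genes summed to 11302, 7771 and 5719 CPM at day 1 and to 6424, 5672 and 6473 CPM at day 7, and library 1 held the highest value for 12 of 14 of them. Their median was -0.25 with all libraries, -0.01 without library 1, -0.17 without library 15, -0.40 without library 13 and -0.49 without library 5. The part of muscle, marrow or bone RNA in any gene's difference was not tested.

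Proteinases, their inhibitors and signalling genes were mixed. Among 20 proteinase genes 8 were higher and 0 lower at an unadjusted p under 0.05 in both fits, against 7.29% higher among all genes tested with library 13 and 2.88% without it, with a median of 0.28 (0.23 without library 13, 0.16 without library 1 and 0.58 without library 5), and Ctsk, Mmp9 and Mmp13 belong to this count. The 11 proteinase inhibitors had a median of 0.13 (0.14 without library 13 and 0.23 without library 1), and single genes ranged from -2.17 to 0.90. Of the 11, 7 were above 0 (8 without library 13). At an unadjusted p under 0.05, 3 were higher and 0 lower in both fits, against the same shares of all genes. Serpine2, an inhibitor of serine proteinases, stood at 255, 223 and 224 CPM at day 1 and at 301, 334 and 356 CPM at day 7. Serpinf1, which encodes the anti-angiogenic factor PEDF, stood at 56.3, 76.3 and 61.6 CPM and at 95.1, 127 and 141 CPM, and tenascin C, Tnc, at 535, 454 and 586 CPM and at 680, 740 and 824 CPM. All 3 were without overlap, as were 7.37% of all genes in this direction, and none was called by edgeR. Serpinf1 was called by DESeq2 without library 13, and Serpinf1 and Tnc by limma-voom with sample weights, which called 0.207% of all genes higher. The 31 genes of TGF-beta and BMP signalling, the pathways on which Bambi acts, had a median of 0.11 (0.04 without library 4 or 13 and 0.20 without library 5), the Wnt list 0.23 (0.04 without library 13 and 0.15 without library 5) and the IGF list 0.12 (0.07 without library 14 or 15 and 0.18 without library 1). The medians of immediate early and proliferation genes had no stable direction. That of the former was 0.03, -0.13 without library 1, -0.10 without library 15 and 0.14 without library 5 or 14, and that of the latter 0.045, -0.0043 without library 13 and 0.03 to 0.10 without each of the others, with the proliferation marker Mki67 at 1731, 1597 and 1600 CPM at day 1, at 744 CPM in library 13 and at 1524 and 1627 CPM in libraries 14 and 15.

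Interferon-stimulated genes spread widely among the day 1 libraries. The fold change of all 15 was above 0, with or without library 13, but that of 10 without library 1 and of 12 without library 5. Of the 15, 0 reached an unadjusted p under 0.05, and the groups overlapped for each. Among all genes tested 7.29% were higher and 5.12% lower at that p, and 7.37% were higher without overlap. A count of 0 among 15 genes is close to these shares. Irf7, which drives type I interferon production, was at 25.5, 221 and 31.0 CPM at day 1 and at 149, 123 and 113 CPM at day 7, and naive libraries ranged from 26.3 to 224 CPM. Library 4 held the highest value for 8 of the 15 genes and library 13 for the other 7. The list's median was 0.47 with all libraries, 0.27 without library 13, 0.16 without library 1, 0.14 without library 5 and 2.17 without library 4.

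The direction of the inflammatory list rested on library 5. Its median log2 fold change was -0.15 with all libraries and 0.18 without library 5, while it was -0.30 without library 13, -0.39 without library 1 and -0.43 without library 14. Cxcl1, a neutrophil-attracting chemokine, was at 0.18, 0.33 and 5.79 CPM at day 1 and at 0.16, 0.18 and 0 CPM at day 7, and its log2 fold change moved from -4.45 (unadjusted p = 0.037) to -1.36 (unadjusted p = 0.57) without that library. Il1b and Tnf overlapped between the days, with log2 fold changes of -0.15 and -0.10. Core clock genes had a median of -0.27 (-0.26 without library 13) over 19 genes, 0 called, with -0.43 without library 4, -0.14 without library 14 and -0.06 without library 1, in which 10 of the 19 were highest. Per2 was at 25.7, 12.8 and 19.1 CPM at day 1 and at 8.18, 12.0 and 14.9 CPM at day 7. Hours of killing were not given in the sources used here.

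At an unadjusted p under 0.05, 1089 genes were lower and 1549 higher at day 7 (747 and 627 without library 13). Of the lower genes edgeR called 0 besides Gm14567, and DESeq2 called 12 (7 without library 13). The genes named here were among those with the lowest p without library 13 on the lower side. Pcp2, known from Purkinje cells, stood at 1.25, 1.36 and 1.10 CPM at day 1 and at 0.623, 0.401 and 0.169 CPM at day 7 (log2 fold change -1.76 ± 0.45, adjusted p = 0.246), and -2.15 ± 0.49 without library 13 (adjusted p = 0.295). DESeq2 called it lower in both fits, as it did Gm14567. Hacd1, an enzyme of very long fatty acid synthesis in muscle, stood at 12.3, 9.75 and 10.4 CPM and at 3.19, 7.09 and 7.54 CPM. The olfactory receptor gene Olfr1307 stood at 14.2, 14.8 and 12.2 CPM and at 9.35, 9.45 and 8.72 CPM (-0.58 ± 0.14, adjusted p = 0.238). These 3 did not overlap between the days, as held in the lower direction for 8.39% of all genes tested. Atad3aos, an antisense transcript, was at 0.935 CPM in library 13 and overlapped.

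On the higher side the lowest p without library 13 belonged to Gpr137b and St8sia6. Gpr137b, a lysosomal membrane protein, stood at 26.7, 24.1 and 24.8 CPM at day 1 and at 30.9, 39.3 and 38.9 CPM at day 7, with a log2 fold change of 0.53 ± 0.10 and 0.63 ± 0.09 without library 13 (adjusted p = 0.129 and 0.0614). St8sia6, a sialyltransferase, stood at 11.3, 10.2 and 9.77 CPM and at 18.1 and 18.9 CPM in libraries 14 and 15, whereas library 13 was at 8.57 CPM. Both were called by limma-voom when library 13 was left out.

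The 25 genes that DESeq2 called both with and without library 13 held 20 higher and 5 lower genes, and 5 of the 25 were predicted genes or pseudogenes. These genes were chosen after their values were seen. Beside Ckb, Bambi, C77080, Ctsk, Mmp9, Mmp13, Slc9b2, Col1a1 and Col1a2 they included Slc13a5, a citrate transporter, at 10.2, 11.6 and 9.81 CPM against 18.2, 22.5 and 26.3 CPM. Cpz, a secreted carboxypeptidase with a Frizzled-like domain, stood at 4.98, 6.88 and 4.04 CPM against 10.99, 15.96 and 18.8 CPM, and Adcy3, an adenylyl cyclase, at 32.0, 26.5 and 30.4 CPM against 58.1, 47.7 and 50.0 CPM. Mst1r, a receptor tyrosine kinase of macrophages and epithelia, stood at 6.09, 6.40 and 4.93 CPM against 7.17, 9.54 and 10.8 CPM, and Angpt4, an angiopoietin, at 8.09, 8.28 and 6.38 CPM against 11.2, 13.1 and 12.0 CPM. The day 7 values exceeded the day 1 values without overlap for all 5, as held for 7.37% of all genes tested. Selection by calls made from these same values favours such a separation, so it adds no support. Of the 25 genes, 24 were also among the 62 called by limma-voom with sample weights. That fit used the same libraries and gave library 13 a weight of only 0.158, so the overlap is not independent support. Without weights limma-voom called 0 genes, and 2 when library 13 was left out.

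Injured knees of the same mice gave the scale of a response to the rupture over the same days, with 1704 genes higher and 1173 lower at day 7 by edgeR (1959 and 1419 without library 13). The difference between the time changes, contralateral minus injured, was tested for each gene in the same fit, and 802 genes, 3.77% of those tested, were called, 52 with a higher and 750 with a lower change in the contralateral knee (70 and 892 without library 13). Ctsk was called higher in injured knees, with a log2 fold change of 1.04 ± 0.18 (adjusted p = 0.000816). In contralateral knees edgeR had not called it (1.02, adjusted p = 0.094). The difference was -0.02 ± 0.26 (SE), which does not show that the changes were equal. Col1a1 had 1.84 ± 0.40 in injured knees (adjusted p = 0.00388) and a difference of 0.12 ± 0.55 (-0.59 ± 0.44 without library 13). For Ckb the injured change was 0.46 ± 0.18 and the difference 0.76 ± 0.26 (adjusted p = 0.119), and for C77080 the injured change was 0.82 ± 0.13 (adjusted p = 0.000279).

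The knees differed in the time change of the bone-forming gene Sp7. Its log2 fold change was -0.25 in injured and 0.65 in contralateral knees, a difference of 0.90 ± 0.24 (adjusted p = 0.0422) that was 0.78 without library 13 (adjusted p = 0.0799). Bglap had -0.72 ± 0.35 in injured and 1.01 ± 0.36 in contralateral knees, and the difference of 1.74 ± 0.50 missed the threshold (adjusted p = 0.0629), which it passed without library 13 (1.89 ± 0.51, adjusted p = 0.0428). For Mmp9 the difference was 0.74 ± 0.23 (adjusted p = 0.0885), and 0.81 ± 0.22 without library 13 (adjusted p = 0.0467). For the chondrocyte regulator Sox9 the log2 fold change was 1.38 in injured and -0.07 in contralateral knees (adjusted p of the difference 0.0135). For Acan it was 1.61 and 0.29 (adjusted p of the difference 0.0463). The lists with the highest medians in injured knees were those of connective tissue collagens, at 2.05 with 12 of 12 called higher, and tendon and ligament genes, at 1.96 with 6 of 7, against 8.01% of all genes tested. In contralateral knees the medians were 0.63 and 0.22 (0.36 and 0.23 without library 13, 0.98 and 0.48 without library 5) with 0 called by edgeR. There DESeq2 called Col1a1, Col1a2 and Col5a2, the last only with library 13, against 0.325% of all genes called higher (0.151% without library 13). The libraries of both knees came from the same mice, but the labels do not say which, so the fit treats them as independent, whereas the study's model allowed for shared pools of mice.

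**Figure D5:**
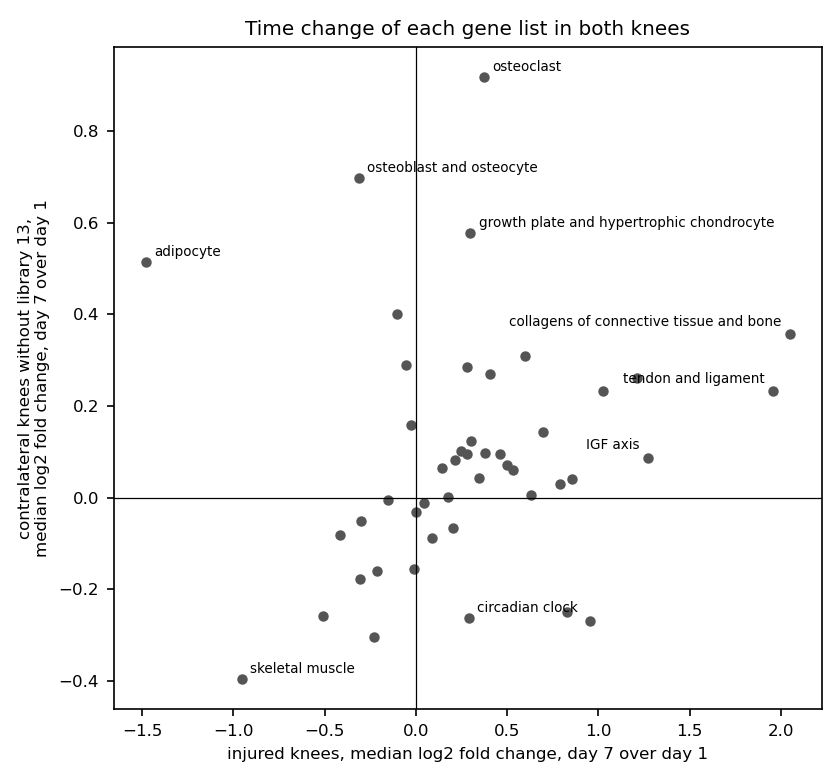
Median log2 fold change from day 1 to day 7 of each gene list in injured knees (x axis) and in contralateral knees without library 13 (y axis), 1 point per list. Connective tissue collagens lie at 2.05 in injured and 0.36 in contralateral knees, and the osteoblast and osteocyte list at -0.31 and 0.70.

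A last comparison between the days concerned the makeup of the libraries, including the kind of transcript. Transcripts annotated as retained introns took 4.03, 3.61 and 3.195% of counts at day 1 and 2.49, 2.94 and 2.86% at day 7, without overlap, and the exact permutation test gave p = 0.1 (two-sided), the smallest that 3 against 3 allows. The naive libraries ranged from 2.62 to 3.77%. The number of genes with at least 10 counts was 20053, 19908 and 21057 at day 1 and 16339, 18509 and 19540 at day 7, a count that depends on depth. In the fifth of tested genes with the shortest transcripts (median 529 bases) the median log2 fold change was -0.08, and it was -0.02 in the fifth with the longest (median 4493 bases). For libraries 14 and 15 minus day 1, without library 13, the values were -0.05 and 0.02. What part library quality had in the differences between days was not tested.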

How the data were processed

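Kallisto tables of 18 mouse cartilage libraries (TruSeq Stranded Total RNA with ribosomal depletion, paired-end HiSeq reads, trimmed by Trimmomatic) were used. The authors deposited an estimated count, a TPM value and an effective length per transcript. The submitters' processing notes name kallisto, DESeq2 and the human build GRCh38, whereas the transcript identifiers are murine. Estimated counts were summed per gene with the GENCODE vM21 annotation (GRCm38), to which 135107 of 137436 transcripts (98.3%) matched by identifier, giving 49184 genes, and rounded. The deposited TPM values were not used in any comparison, and lengths served only as an offset in an alternative. edgeR 4.0.16 (filterByExpr, TMM, group means over 18 libraries, quasi-likelihood F-test) was the main test, and the SE is the log2 fold change divided by the root of F. DESeq2 1.42.0 and limma 3.58.1 were alternatives. A gene was called at an adjusted p of at most 0.05 and 1.5-fold. Distances used log2(CPM + 0.5). Scripts were tested on simulated data. P-values measure the spread between pools of mice, at a depth of 16074762 to 41794005 counts. The study left out 1 ACL library of low mapping rate without naming it, and all 18 were used here.

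The members and gene lists were chosen with earlier results of these data known. Named genes were those called in both fits, filled up to 5 per direction with the lowest p without library 13, those called in 1 fit, the 2 most abundant of each list, and the 10 most abundant of each library. Predicted genes and pseudogenes (names ending in -ps included) were counted only. Other list members and the genes shared by both DESeq2 fits were described after their values were seen, and not every gene selected by the rule is described. One result is not reported here. Coordinates are given for GRCm38.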

Additional observations from a re-analysis of the deposited data

Results flagged for a closer look

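The time change differed between contralateral and injured knees for 14 of 151 genes, by the test of the difference in edgeR's fit (adjusted p at most 0.05). The 151 were those selected for naming together with the members of 5 lists. All 14 also met the 1.5-fold limit that applied to the 3.77% called among all genes tested. In 12 of the 14 the contralateral change was the lower one. Contralateral minus injured log2 differences were -3.52 for Dkk3, -2.80 for Col3a1, -2.42 for Col6a3, -2.13 for Bgn, -1.97 for Fmod, -1.66 for Timp2, -1.66 for Fn1, -1.44 for Sox9, -1.35 for Pkd1, -1.31 for Acan, -0.97 for Igfbp4 and -0.74 for Pecam1. They were 1.85 for Sost and 0.90 for Sp7. Without library 13 the last pair lost the call (1.23, adjusted p = 0.0775, and 0.78, adjusted p = 0.0799) and the other 12 kept it.

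In the naive group 1 of 6 libraries lay far from the others for several genes, by Dixon's test at the 95% level, which chance alone would meet in about 1 group in 20 and which treats the 6 libraries as independent, although some may share mice. Library 11 was high for Timp1 (94.1 CPM), Tnfaip6 (19.6), Cxcl5 (15.1), Cxcl1 (4.06), Ccl2 (17.9), Ccl7 (26.9), Il6 (2.03), Il11 (3.18), Ptgs2 (7.12), Saa3 (4.66) and Tgfbi (491 CPM). Library 12 was high for Irf7 (224 CPM). The first set of genes was also high in contralateral library 5 and injured library 3, both of day 1, and the genes were chosen after that was seen.

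Transcripts that matched no gene of the annotation took 3.90% of the counts of library 13, above the 0.819 to 2.33% of the naive libraries.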

How the results depend on the processing

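Beside the 3 genes higher and 1 lower, DESeq2's Wald test gave 69 and 12, limma-voom 0 and 0, limma-voom with sample weights 44 and 18, no filter on low counts 1 and 0, the 6 contralateral libraries alone 0 and 0, a transcript length offset 0 and 0, and an adjusted p of at most 0.01 gave 0 and 0. Leaving out any 1 of the 6 libraries gave 0 to 0 in both directions, with a lowest adjusted p of 0.0614 to 0.354. The counts were 3 and 1 with DESeq2 size factors, robust dispersion, at least 10 counts in 3 libraries, and no fold limit. Without library 13, DESeq2's Wald test gave 33 and 7 in place of 0 and 0, limma-voom 2 and 0, and the length offset 0 and 0, 3 alternatives added after seeing the data. The median distance of libraries 14 and 15 to day 1 was 0.38, and 0.303 over genes of at least 10 CPM. The cause of these shifts was not tested. The 11 genes of the fit kept their direction in all 18 alternatives each, Ckb between 1.01 and 1.34, Bambi between 0.83 and 0.93 and C77080 between 0.76 and 0.89. Of 92 list medians recomputed, 10 moved by more than the spread between day 7 libraries. No paired analysis was possible because the days were sampled from different mice, and no label ties an injured library to the contralateral library of its mice, a link for which the study's own model allowed. With 3 pools per group, a p that misses the threshold does not show that a gene did not change.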

Other observations

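Fat and pain-related genes were not described above. The 10 adipocyte genes, which mark marrow or infrapatellar fat, had a median log2 fold change of 0.37 from day 1 to day 7 (0.51 without library 13, 0.63 without library 4 and 0.10 without library 5), with 0 called by edgeR or DESeq2 in either fit, and summed to 1112, 1145 and 625.5 CPM at day 1 and to 1267, 1291 and 1104 CPM at day 7. In injured knees the same list had a median of -1.48 and 5 of 10 genes fell, against 5.52% of all genes tested. Of 11 listed pain-related neurotrophins and receptors 8 were tested with all libraries, and their median was -0.29. With 1 library left out 9 of the 11 were tested, so the medians that follow cover a different set of genes. They were -0.25 without library 13, -0.19 without library 4, -0.11 without library 15 and 0.18 without library 5. The 7 genes of MHC class II had a median of -0.05 (-0.19 without library 1 and 0.11 without library 5). The glutathione peroxidase gene Gpx3, which encodes a secreted antioxidant enzyme, stood at 147, 178 and 146 CPM at day 1 and at 281, 239 and 238 CPM at day 7, without overlap, at a log2 fold change of 0.69 ± 0.19 (edgeR adjusted p = 0.278), and 0.60 ± 0.20 without library 13 (adjusted p = 0.605). Its list of 15 antioxidant and metallothionein genes had a median of -0.14 (-0.15 without library 13, -0.21 without library 4 and 0.10 without library 5). Of the 15, 3 were above 0 (2 without library 13). In each direction 1 was without overlap, against 7.37% higher and 8.39% lower among all genes tested.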
